A study of Mus musculus with 6 samples.

Results

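The genes described here are the molecular chaperones of the cytosol with their helper proteins, heat shock factors and a pair of cold-inducible RNA-binding protein genes, measured in mouse CD4 T cells that lack the protease Furin and in control cells. The list holds 40 genes, chosen by gene symbol. Of these, 36 have a probe set that carries their symbol alone and were analysed, out of 18193 genes on the array with such a probe set. Hsp90ab1, Ptges3, Hsf1 and Rbm3 were not analysed here, so Cirbp is the only cold-inducible gene with values. Not all members are cytosolic: Hspa9, Hspd1 and Hspe1 encode chaperones of the mitochondrial matrix.

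The samples were 6 Affymetrix arrays, 1 for each combination of 2 genotypes and 3 cell populations. Furin cKO mice carried CD4 cre and Fur flox/flox, and the control mice carried Fur flox/flox without Cre. Both genotypes therefore held the loxP-flanked alleles, and Cre was under the Cd4 promoter, which is active from thymocyte stages onward. All mice were C57BL/6 and 10 to 11 weeks old. Activated cells were naive CD62L-positive, CD44-negative cells grown for 2 days on plates coated with antibodies to CD3 and CD28, each at 5 µg/ml. Regulatory cells (CD25-positive, FoxP3-positive) and memory cells (CD62L-negative, CD44-positive) were sorted and used without culture. No label states if one animal gave several populations or if animals were pooled. Each value below is an array signal, an intensity on a linear scale, and the number of arrays limits its precision.

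Chaperones bind unfolded or partly folded proteins and keep them from aggregating. HSP70 proteins do so in cycles of ATP hydrolysis that are started by HSP40 (J-domain) proteins and reset by exchange factors, HSP90 acts later on near-folded clients such as kinases and steroid receptors, and the CCT chaperonin folds actin and tubulin inside a closed ring. Heat and other proteotoxic stress release the transcription factor HSF1, which binds arrays of inverted GAA units and induces Hspa1a, Hspa1b, Hsph1, Hspb1, Dnajb1 and other members. CIRBP binds mRNA and is induced by mild cold. In T cells, antigen receptor stimulation starts blast growth with a large rise in protein synthesis.

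The promoters of 7 members are shown. Hspa1a, Hspa1b, Hspb1 and Hsph1 differed most between the genotypes among the members that hold the unit HSF1 binds, Cirbp differed and holds no form that was searched, and Hspe1 and Dnajb6 show the extended form, although their own differences were small. Each line gives the 150 bases before the RefSeq transcription start in GRCm38.p6, 5′ to 3′ on the gene's own strand. Capitals mark GAANNTTC or TTCNNGAA (2 inverted units) and overlapping runs of them, such as GAANNTTCNNGAA and TTCNNGAANNTTC (3 units).
Hspa1a, chr17:34972157-34972306, minus strand: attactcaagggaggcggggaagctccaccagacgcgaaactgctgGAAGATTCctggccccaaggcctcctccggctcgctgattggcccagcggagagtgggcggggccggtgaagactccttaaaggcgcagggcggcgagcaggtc
Hspa1b, chr17:34959239-34959388, minus strand: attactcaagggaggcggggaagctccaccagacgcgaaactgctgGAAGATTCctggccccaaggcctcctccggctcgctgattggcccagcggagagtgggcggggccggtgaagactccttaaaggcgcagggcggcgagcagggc
Hspb1, chr5:135887769-135887918, plus strand: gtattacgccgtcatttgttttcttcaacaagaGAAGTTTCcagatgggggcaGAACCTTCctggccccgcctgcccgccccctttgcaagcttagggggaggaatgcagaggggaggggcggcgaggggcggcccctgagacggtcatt
Hsph1, chr5:149636337-149636486, minus strand: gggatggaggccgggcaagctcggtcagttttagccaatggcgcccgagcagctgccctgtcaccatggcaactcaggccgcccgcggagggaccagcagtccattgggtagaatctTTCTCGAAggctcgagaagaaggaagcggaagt
Hspe1, chr1:55087998-55088147, plus strand: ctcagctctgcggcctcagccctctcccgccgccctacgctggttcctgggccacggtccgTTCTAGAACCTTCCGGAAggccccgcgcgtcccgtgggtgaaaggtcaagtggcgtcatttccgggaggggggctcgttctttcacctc
Dnajb6, chr5:29735748-29735897, plus strand: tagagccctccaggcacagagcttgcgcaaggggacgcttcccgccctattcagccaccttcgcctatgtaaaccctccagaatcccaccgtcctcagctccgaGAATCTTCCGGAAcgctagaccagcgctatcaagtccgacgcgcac
Cirbp, chr10:80167689-80167838, plus strand: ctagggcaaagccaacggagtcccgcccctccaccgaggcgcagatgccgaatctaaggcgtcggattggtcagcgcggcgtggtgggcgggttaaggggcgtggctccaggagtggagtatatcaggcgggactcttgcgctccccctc

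Promoter entries were found for 31 of the 36 members. Hspa8, Hspa9, Hsp90aa1, St13 and Cct4 had none in the table used. Within 250 bases before a start, on either strand, 14 of the 31 held the 2-unit motif, against 14.5% of 27025 genes in the same table. The 3-unit motif stood in 3 of the 31, Dnajb6, Hspd1 and Hspe1, against 0.514% of all genes. Hspd1 and Hspe1 encode the mitochondrial partners HSP60 and HSP10, start on opposite strands of chromosome 1 and share 1 copy of the extended run, in which 2 matches of the 3-unit motif overlap. The Hspa1a and Hspa1b promoters were identical at 149 of the 150 bases shown and at 247 of the 250 searched. These genes encode nearly the same inducible HSP70, so that probe sets of one can read transcript of the other and their separate values are uncertain. No match was found for Chordc1, Stip1, Ahsa1, Dnajb1 and Cacybp, which were also higher on the Furin cKO regulatory array. A motif match describes these letters only and is no evidence of binding.

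All 36 members read at or above a signal of 47.6, the floor below which signals were not compared, on all 6 arrays. Between 54.3% and 70.4% of probe sets on an array reached the floor, with both activated arrays lowest (54.7% and 54.3%). The 3′ to 5′ ratio of beta-actin was 1.22 to 1.93, highest on the memory arrays. The Furin probe set read 468.3 and 515.8 on the Furin cKO and control arrays of activated cells. On the regulatory arrays it read 410.0 in Furin cKO and 547.2 in control cells. The memory array labelled Furin cKO read 2202.9, against 647.4 on its control. The memory value goes against the label, and the part of the gene that this probe set reads is not given in the sources used, so that outside the deleted part it would check nothing. That array is called the memory array labelled Furin cKO, and every direction drawn from memory cells rests on that label. Foxp3, the defining factor of regulatory cells, read 33.8 and 50.4 on the Furin cKO and control arrays labelled regulatory, against 1116.4 and 1358.2 on the memory arrays. The Foxp3 values go against the population labels, with the regulatory arrays under or close to the floor. Every statement below on regulatory or memory cells rests on those labels. Ikzf2, another marker of regulatory cells, read 15968.2 and 13900.9 on the Furin cKO and control regulatory arrays, against 8212.6 and 9418.9 on the memory arrays. Il2ra and Nrp1 also went with the labels. Il2ra read 3702.1 and 4276.9 on the regulatory and 626.8 and 1190.3 on the memory arrays. Nrp1 read 5765.8 and 4904.1 on the regulatory and 1835.4 and 3110.2 on the memory arrays. Ctla4 read 10619.1 and 11033.1 on the regulatory arrays and was as high on the activated arrays (10316.5 and 11924.6), so that it did not set the regulatory arrays apart from those. The memory arrays held all 7 measured granulocyte markers above the floor, with summed signals of 7900.7 on the array labelled Furin cKO and 2139.3 on the control array, and the regulatory arrays held 6 of 7 (2905.5 and 1567.3), whereas the activated arrays held 0. Myeloid and dendritic markers summed to 27916.8 on the memory array labelled Furin cKO and 54242.8 on its control, against 7481.4 and 7644.8 on the regulatory arrays. In such bulk samples fewer cells of a type and less RNA per cell cannot be told apart.

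The first comparison asks how the chaperone genes differ between Furin cKO and control cells of the same population. In regulatory cells Hsph1 (2.84-fold), Hspb1 (2.26-fold) and 6 of the 8 measured genes of HSP90 and its partners were among the members that read higher on the Furin cKO array, and Cirbp read 3.76-fold lower. The inducible Hspa1a was not among them. In activated and memory cells fewer members differed. The inducible HSP70 genes Hspa1a and Hspa1b were higher in both, beside Hspb1 (higher) and Bag3 (lower) in activated cells and Bag3 (higher) in memory cells. A member is counted here when it differs by at least 1.5-fold. Because each group is a single array, none of these differences has a replicate check or a test.

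In regulatory cells 12 of 36 members were at least 1.5-fold higher on the Furin cKO array, where 9.6% of 14587 measured genes were, and 1 was lower, where 7.75% of genes were. At 2-fold the counts were 2 higher and 1 lower, against 3.14% and 2.12% of genes. At any size 28 of the 36 were higher, compared with 48% of genes. The median log2 fold of the members was 0.35, and that of all measured genes was -0.02. The scaled median absolute deviation of all log2 folds between these arrays was 0.33. Dnajb1 stood just inside the 1.5-fold line and Dnaja1, at 1.43-fold, just outside.

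In memory cells 3 members were at least 1.5-fold higher on the array labelled Furin cKO (13.6% of 14235 genes were) and 0 were lower (12.4% of genes). In activated cells 3 were higher (2.21% of 10756 genes) and 1 was lower (2.51%). The member medians were 0.10 in memory and 0.03 in activated cells, beside -0.01 and 0.00 for all genes. The arrays of these populations differed unequally in spread, with scaled deviations of 0.47 in memory and 0.21 in activated cells, so that the same fold stands further out in activated cells.

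**Figure D1:**
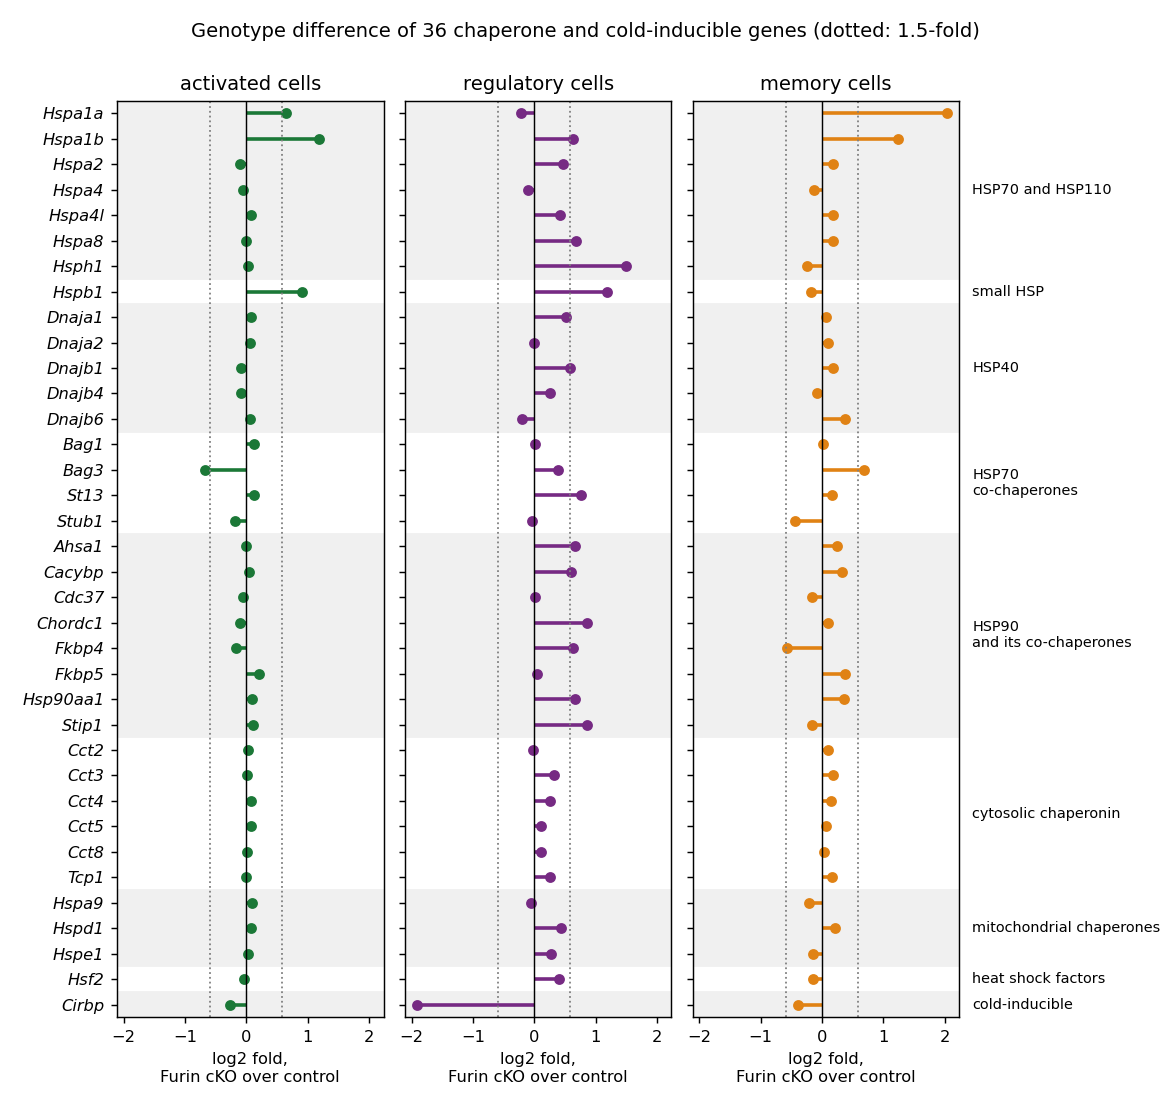
Log2 fold of the Furin cKO over the control array for each of the 36 members (rows, grouped by role), in activated, regulatory and memory cells (panels), with 1 array per group and dotted lines at 1.5-fold. In regulatory cells 12 points lie beyond the right-hand line and Cirbp at -1.91 lies beyond the left-hand one, whereas in the other panels most points lie close to 0.

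**Figure D2:**
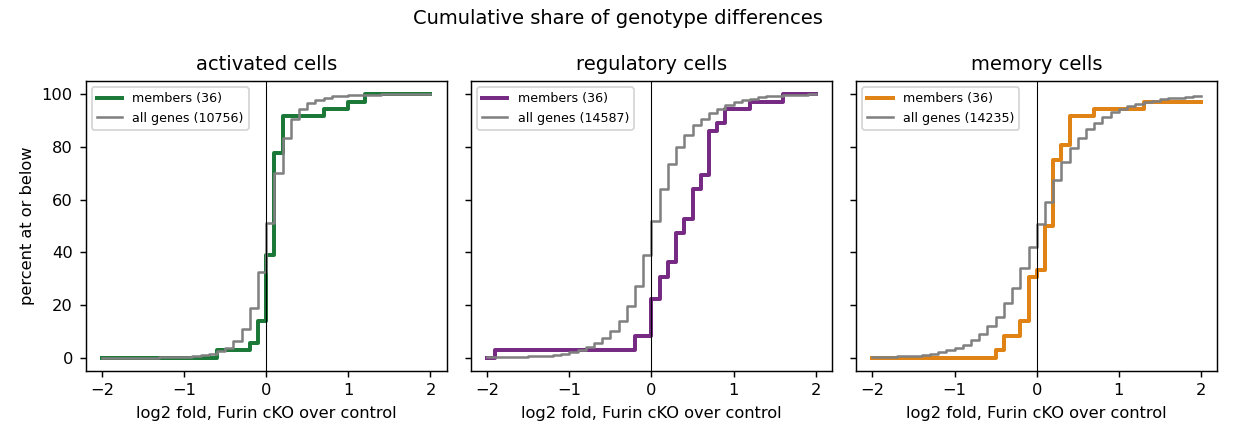
Cumulative share (percent) of genes at or below a log2 fold of Furin cKO over control, for the 36 members (coloured) and all measured genes (grey) in each population, in steps of 0.1 between -2 and 2. In regulatory cells the member curve runs to the right of the grey curve, with medians of 0.35 and -0.02, while Hspa1a in memory cells, at 2.04, lies beyond the axis.

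Among HSP70 and HSP110 genes, the members spread most, with the widest range of log2 folds of the role groups with several members in each population. Hsph1 (Entrez Gene 15505) encodes HSP110, a large HSP70 relative that acts as an exchange factor and helps to dissolve aggregates. It read 5036.1 on the Furin cKO regulatory array and 1775.8 on the control regulatory array, a log2 fold of 1.5. The memory arrays gave 1610.4 (labelled Furin cKO) and 1914.0 (control), and the activated arrays gave 8466.5 and 8337.3. The Furin cKO regulatory value thus lay between those of the uncultured control cells and those of the activated cells. Its other probe set read 3291.8 and 1277.5 in Furin cKO and control regulatory cells, 2.58-fold higher.

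Hspa8, the constitutive HSC70, read 35378.8 and 22066.6 in Furin cKO and control regulatory cells, a 1.60-fold difference. Its 3 other probe sets were higher there too, by 1.32-fold to 1.66-fold. In activated cells it read 22474.7 and 22532.4 on the Furin cKO and control array, and in memory cells 29706.7 and 26284.0. Hspa4l and Hspa2, an HSP110 relative and a testis-enriched HSP70, were 1.34-fold and 1.38-fold higher in Furin cKO regulatory cells, short of the line. Hspa4, another HSP110 family member, was lower by 1.04-fold to 1.10-fold in all 3 populations on its main probe set. Its other probe sets were all higher on the Furin cKO regulatory array, by 1.24-fold to 1.68-fold. In activated and memory cells they went different ways.

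The inducible HSP70 genes differed most outside regulatory cells. Hspa1b (Entrez Gene 15511) read 11686.2 on the memory array labelled Furin cKO and 4992.6 on the control, 2.34-fold higher. It read 1153.9 and 509.9 on the Furin cKO and control activated arrays, 2.26-fold higher, and 1430.6 and 927.3 on the regulatory arrays, 1.54-fold higher. It was the only member above the 1.5-fold line in all 3 populations, where 0.077% of 10383 genes measured in all 3 were. Its 2 other probe sets were higher in each population as well, although in regulatory cells one of them reached only 1.23-fold.

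Hspa1a read 1844.7 on the memory array labelled Furin cKO and 447.4 on the control array, the largest member difference in any population at 4.12-fold. In activated cells it read 399.5 and 254.8 (1.57-fold higher on the Furin cKO array). The Furin cKO regulatory array read 120.3 and its control 140.3, 1.17-fold lower. In memory cells the difference in Hspa1a and Hspa1b moved with the immediate early genes Fos and Jun. Fos read 4468.6 on the array labelled Furin cKO and 628.0 on the control, and Jun read 2441.2 and 393.8. Their list as a whole did not move: of 14 immediate early genes 7 were higher and 7 lower, with a median log2 fold of 0.01. On this pair of arrays the summed granulocyte markers given above and the Furin signal itself also went the way of Hspa1a and Hspa1b. Of the granulocyte markers, Mmp9 went the other way, at 665.9 on the array labelled Furin cKO and 1396.1 on the control. Plasma cell markers had summed signals of 25421.8 on the array labelled Furin cKO and 12418.1 on the control. Igha gave 14979.8 and 2754.2 of these sums, and some markers went the other way, such as Xbp1 at 6326.6 and 8596.0. The part of these genes and markers in the result was not tested. Without Hspa1a and Hspa1b, 1 of the 34 remaining members was at least 1.5-fold higher in memory and 1 in activated cells.

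**Figure D3:**
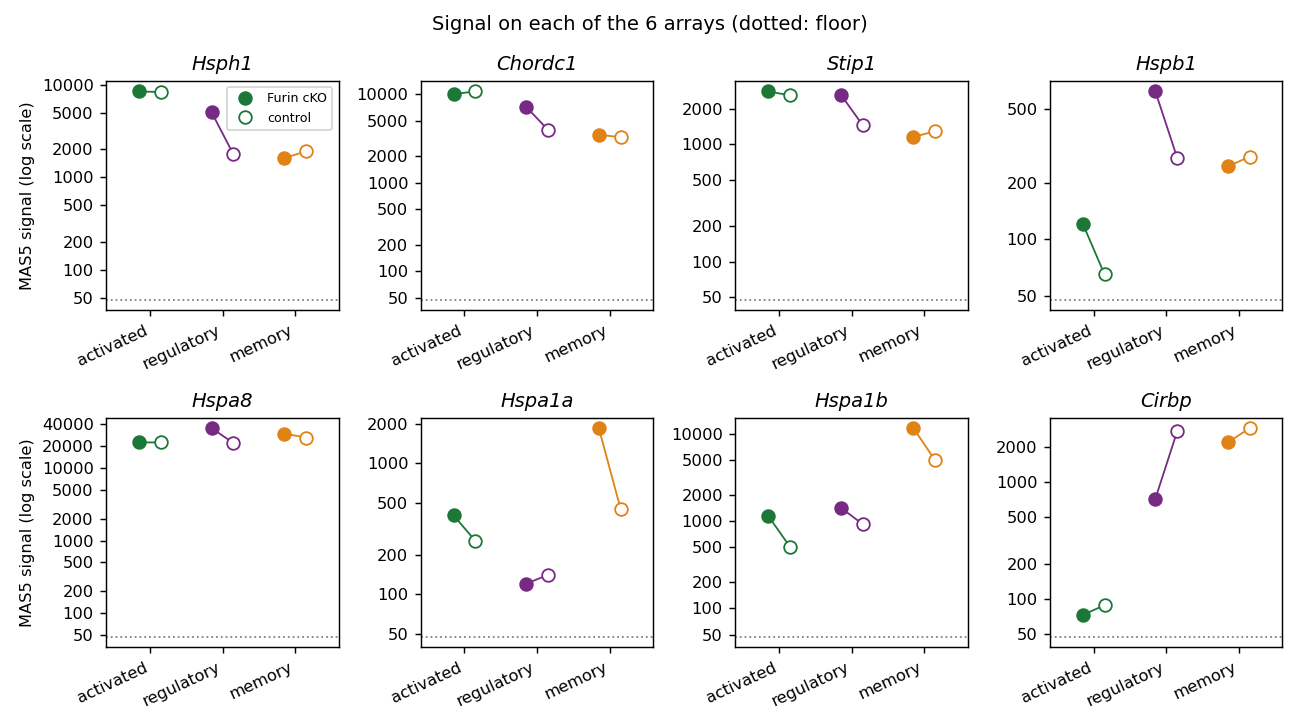
MAS5 signal (log axis) of 8 members on each of the 6 arrays, with the Furin cKO array (filled) left of the control array (open) in activated, regulatory and memory cells, and a dotted line at the floor of 47.6. Hsph1, Chordc1, Stip1, Hspb1 and Hspa8 are higher on the Furin cKO regulatory array, Cirbp is lower on it, and Hspa1a and Hspa1b separate most on the memory arrays.

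The small heat shock protein gene Hspb1 (HSP27, an ATP-independent holdase) separated the genotypes in regulatory cells. It read 618.7 and 273.8 on the Furin cKO and control regulatory arrays, a log2 fold of 1.18. In activated cells it read 121.6 and 65.1, 1.87-fold higher on the Furin cKO array but near the floor, and in memory cells 245.7 and 277.7, 1.13-fold lower. Hspa1a, Hspb1 and Hspa1b were the members at least 1.5-fold higher in 2 or 3 populations, 3 of 36, where 2.65% of genes were.

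The J-domain genes, which hand clients to HSP70, differed less. Dnajb1 (HSP40, the stress-inducible partner of HSP70) read 3188.7 and 2123.1 in Furin cKO and control regulatory cells, 1.5-fold higher, and differed by at most 1.13-fold elsewhere. Dnaja1 read 14695.0 and 10245.0 in regulatory cells. Dnaja2 and Dnajb6 (an inhibitor of aggregation, with the 3-unit motif shown above) were not higher on the Furin cKO regulatory array: Dnaja2 read 10282.9 and 10320.2, and Dnajb6 read 3045.3 and 3499.0. One of the other probe sets of Dnajb6 went the opposite way there, at 677.2 and 359.4 on the Furin cKO and control array.

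Of 13 other J-domain genes measured in regulatory cells, 0 were at least 1.5-fold higher and 1 was lower, the mitochondrial Dnaja3, at 538.1 on the Furin cKO and 852.1 on the control array.

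Of the HSP70 co-chaperones, St13 (HIP, which steadies the ADP-bound state of HSP70) read 5123.9 and 3031.6 in Furin cKO and control regulatory cells, 1.69-fold higher. Bag1, an exchange factor, differed by at most 1.09-fold in any population. Stub1 (CHIP, a ubiquitin ligase for chaperone clients) was lower in all 3, most in memory cells at 2676.1 on the array labelled Furin cKO and 3626.7 on the control.

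Bag3, an exchange factor that links HSP70 to autophagy, was the only member past the 1.5-fold line in opposite directions in different populations. It read 500.6 and 310.4 on the memory array labelled Furin cKO and its control, 1.61-fold higher. In activated cells it read 61.4 and 98.4, 1.60-fold lower on the Furin cKO array and close to the floor. In regulatory cells it read 333.4 and 255.8, 1.30-fold higher. Of 14 other HSP70, small HSP and exchange factor genes measured there, 2 were at least 1.5-fold higher and 2 lower, with a median of 0.10.

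The HSP90 group had the largest median of the role groups with several members in regulatory cells. All 8 measured members (HSP90 alpha and 7 partners) were higher on the Furin cKO array, 6 of them by at least 1.5-fold, and the group median log2 fold was 0.65. In memory and activated cells 0 of the 8 reached the 1.5-fold line in either direction, with medians of 0.17 and 0.02. Chordc1, a zinc-binding HSP90 partner, read 7238.9 and 3984.4 in Furin cKO and control regulatory cells, 1.82-fold higher. Stip1 (HOP, which bridges HSP70 and HSP90) read 2631.6 and 1451.9, 1.81-fold higher.

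Hsp90aa1, the inducible HSP90 itself, read 12507.8 and 7861.1 on the Furin cKO and control regulatory arrays, 1.59-fold higher. Of its 4 other probe sets, 2 were 1.65-fold and 2.15-fold higher, and 1, at 68.8 and 87.7, was lower. The last read 89.5 on the Furin cKO array and 5.9, under the floor, on the control array. Ahsa1, which speeds the HSP90 ATPase, read 5240.2 and 3285.5, also 1.59-fold higher. Fkbp4, the FKBP52 immunophilin of steroid receptor complexes, read 1472.2 in Furin cKO and 952.2 in control regulatory cells, 1.55-fold higher. Among memory cells it went the other way, at 591.1 on the array labelled Furin cKO and 882.3 on the control, 1.49-fold lower and just short of the line.

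Cacybp, a calcyclin-binding protein with HSP90 and ubiquitin ligase contacts, read 4976.6 and 3279.5 in Furin cKO and control regulatory cells, 1.52-fold higher. Cdc37 and Fkbp5, the kinase adaptor of HSP90 and the glucocorticoid-induced FKBP51, were the partners that hardly differed there, by 1.01-fold and 1.03-fold. Among 9 other measured HSP90 co-chaperone genes the median in regulatory cells was -0.11. Only Ahsa2, a relative of Ahsa1, was at least 1.5-fold higher among them, at 1607.4 and 802.8 on the Furin cKO and control array.

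The cytosolic chaperonin genes (Tcp1, Cct2, Cct3, Cct4, Cct5 and Cct8) encode subunits of 1 ring and differed little between genotypes. In regulatory cells their log2 folds ran between -0.02 and 0.32, in memory cells between 0.03 and 0.17, and in activated cells between 0.00 and 0.07. The largest was Cct3, with 7555.4 and 6033.2 in Furin cKO and control regulatory cells. Of 14 other chaperonin, prefoldin and tubulin cofactor genes measured there, 1 was at least 1.5-fold higher, and the median was -0.06.

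The mitochondrial chaperones did not reach the 1.5-fold line in any population. Hspd1 (HSP60) read 7856.7 and 5849.3 in Furin cKO and control regulatory cells, 1.34-fold higher, and Hspe1 (HSP10) read 8835.4 and 7260.0. Hspa9 (mortalin, the mitochondrial HSP70) read 2759.5 and 2877.3. Of 7 other mitochondrial chaperone and protease genes, 0 were higher on the Furin cKO regulatory array at any size, and their median was -0.15. Hsf2, a heat shock factor, read between 66.8 and 95.9 on all arrays, close to the floor.

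Cirbp (Entrez Gene 12696), which encodes the cold-inducible RNA-binding protein, read 719.7 and 2709.3 on the Furin cKO and control regulatory arrays, a log2 fold of -1.91. It read 2188.5 and 2892.6 on the memory array labelled Furin cKO and its control, 1.32-fold lower. In activated cells both arrays were close to the floor, at 72.9 and 88.1. Of the 4 uncultured arrays, the Furin cKO regulatory array thus stood alone at a low level. Hspa4, Stub1 and Cirbp were the members lower at any size in all 3 populations, 3 of 36, where 17% of genes were. For Hspa4 this held on the main probe set only.

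The Furin cKO regulatory array was next set beside the other arrays of uncultured cells. Of these 4 arrays it was the highest for 18 of 36 members, where it was the highest for 23.3% of 15691 genes. It exceeded the other 3 by at least 1.5-fold for 6 members (Hspb1, Hsph1, Chordc1, Fkbp4, Stip1 and Ahsa1), where it did so for 3.26% of genes. For 25 members the regulatory log2 fold was the largest of the 3 populations, where this held for 30.5% of genes.

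Of the 13 members past the 1.5-fold line in regulatory cells, 9 had another probe set above the floor. In 8 of these all other probe sets went the same way, and in Hsp90aa1 the lower one named above did not. Over all 24 members with another measured probe set, 10 had at least 1 that went the opposite way in regulatory cells.

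Some other gene lists moved with the regulatory difference. Of 15 measured cell cycle genes 13 were higher on the Furin cKO regulatory array, with a median log2 fold of 1.10. Fos read 478.5 there and 1427.4 on the control array, and Jun read 209.5 and 814.5. Of the 14 immediate early genes measured there, 3 were at least 1.5-fold lower and 0 higher. Of the granulocyte markers summed above, Mpo was lower on the Furin cKO regulatory array, at 64.5 and 106.5, and Mmp9 differed little, at 309.8 and 300.4. Besides the granulocyte markers, plasma cell markers differed, with all 6 measured above the floor on both arrays. Their summed signals were 15703.0 on the Furin cKO and 23885.3 on the control regulatory array. Igha gave 5947.4 and 13170.1 of these sums. Xbp1 differed little, at 7888.1 and 8117.7, and some markers went the opposite way, such as Mzb1 at 419.0 and 282.3. B cell markers, 7 of 7 above the floor, summed to 16184.3 and 18636.1 on the Furin cKO and control regulatory arrays. Ighm gave 13927.8 and 16773.2 of these sums. Most of the other B cell markers went the opposite way, such as Ms4a1 at 485.3 and 268.4, though Cd79a, at 104.1 and 142.3, did not. In memory cells all 15 cell cycle genes were higher on the array labelled Furin cKO, with a median of 1.87. Of the HSP90 group 5 of 8 members were higher on that array, 0 of them by at least 1.5-fold, with a median of 0.17. The part of these lists in the chaperone differences was not tested.

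The log2 folds of the 36 members were little related between populations. Across members, which are not independent replicates and of which Hspa1a and Hspa1b share sequence, Pearson's r was 0.01 between memory and regulatory cells, 0.23 between activated and regulatory cells, and 0.47 between activated and memory cells (Spearman's rho 0.08, 0.09 and 0.29). Without Hspa1a and Hspa1b the last value was -0.11. These comparisons share no array.

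A limma model with population and genotype as additive terms was fitted to all 6 arrays and 15808 genes. Its genotype term had 0 members with an adjusted p under 0.05, and 0 genes. At an unadjusted p under 0.05, 1 member, Hspa1b, was higher and 0 were lower, where 1.21% and 1.63% of genes were. That model has 2 residual degrees of freedom. Its genotype p-values rest on the variation of the difference across populations and not on a spread across animals.

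The second comparison asks how the chaperone genes differ between cell populations, taking both genotypes together in the same limma model. Activated cells carried more transcript of all 6 chaperonin genes, of the mitochondrial chaperones Hspa9 and Hspd1, and of the HSP90 partners Cacybp and Fkbp4 than either uncultured population. They carried less Cirbp, by 31.4-fold against memory and 17.4-fold against regulatory cells, and less Bag3, Hspb1 and Fkbp5. Hspa1b was 9.96-fold lower in activated than in memory cells. Only the activated cells were cultured and stimulated, so that population, culture and stimulation cannot be told apart. A hybridisation batch that followed population could not be told apart from it either. The hybridisation control bioB read 757.5 and 656.0 on the Furin cKO and control activated arrays. It read 2974.4 and 4144.7 on the memory and 1808.5 and 2123.4 on the regulatory arrays. The part of such array differences was not tested.

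Against memory cells, 17 members were higher in activated cells and 6 were lower at a limma adjusted p under 0.05 (Benjamini-Hochberg over 15808 genes), where 17.4% and 27% of genes were. Against regulatory cells, 14 were higher and 5 lower, where 18.1% and 26.5% of genes were. The member medians were 0.51 and 0.58 in these comparisons, and the medians over all genes were -0.21 and -0.23. Quantile normalization and cyclic loess moved both all-gene medians to 0.00. The share of called genes that were higher was then 51.5% and 52.7% in place of 39.1% against memory cells, and 55.2% and 56.6% in place of 40.6% against regulatory cells. The member counts under these scalings were 21 and 19 higher against memory cells and 16 and 15 against regulatory cells.

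**Figure D4:**
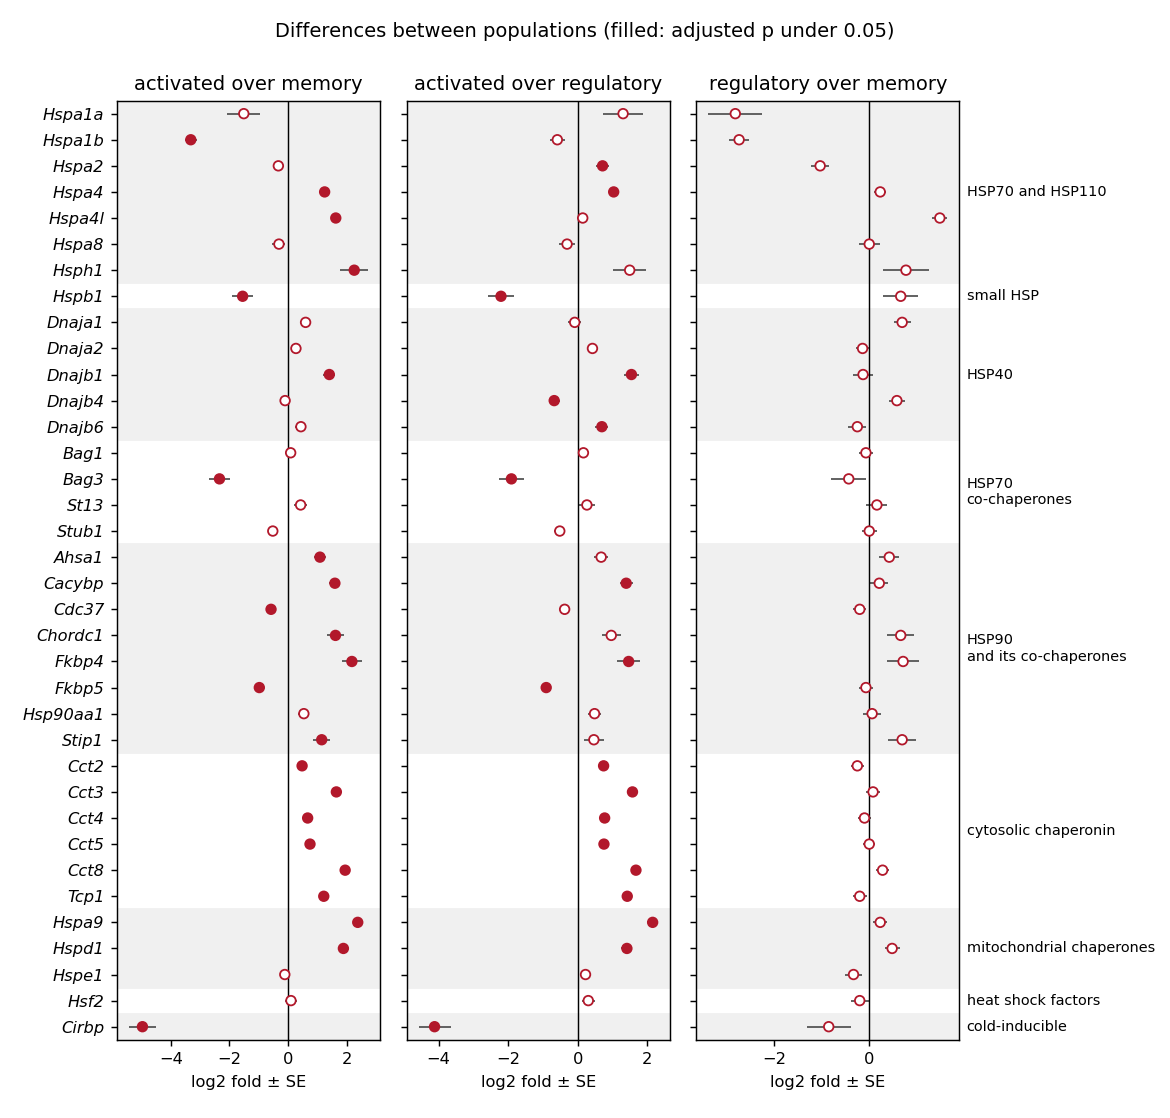
Log2 difference between populations (limma, both genotypes together, error bars ± SE, 2 arrays per population) for the 36 members, with filled points at an adjusted p under 0.05. All 6 chaperonin genes are filled and right of 0 in both contrasts with activated cells, Cirbp lies far left at -4.97 and -4.12, and 0 points are filled for regulatory over memory cells.

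These calls depended on single arrays. Leaving out the Furin cKO activated array left 7 members higher and 3 lower against memory cells, and leaving out the control activated array left 3 and 3. Without the memory array labelled Furin cKO the counts were 6 and 2, and without the control memory array 4 and 1. Leaving out either regulatory array ended all calls of activated over regulatory cells, for members and for all genes, at the threshold of 0.05.

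All 6 chaperonin genes were higher in activated cells in both contrasts. Cct8 read 12969.7 and 12905.8 on the Furin cKO and control activated arrays, against 4218.8 and 3919.6 on the regulatory and 3387.1 and 3313.5 on the memory arrays. The log2 difference was 1.95 ± 0.13 (SE) against memory cells, with a limma adjusted p of 0.0021, and 1.67 ± 0.13 against regulatory cells, with an adjusted p of 0.0027. Its other probe set was below the floor. The smallest difference among the chaperonin genes was that of Cct2 against memory cells (0.48 ± 0.14, limma adjusted p = 0.048).

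With single arrays left out, the number of chaperonin genes called against memory cells was 1 to 4. Against regulatory cells it was 0 to 6, and all 6 log2 differences stayed above 0 in each of these fits. The further ring subunits Cct6a and Cct7 were also higher in activated cells, with log2 differences of 1.27 and 0.74 against memory cells (limma adjusted p = 0.0043 and 0.015). The prefoldin genes, whose complex delivers clients to the ring, went different ways: Vbp1 was higher by 1.2 (limma adjusted p = 0.0055) and Pfdn5 was lower, at -3.84 (limma adjusted p = 0.0018) against memory cells. Of the 14 genes on that list, 4 were called higher and 5 lower.

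The mitochondrial chaperone Hspa9 (Entrez Gene 15526) read 12933.8 and 12153.0 on the Furin cKO and control activated arrays, against 2759.5 and 2877.3 on the regulatory and 2242.3 and 2590.1 on the memory arrays. Its log2 difference was 2.38 ± 0.15 against memory cells (limma adjusted p = 0.002) and 2.15 ± 0.15 against regulatory cells (limma adjusted p = 0.0023). Hspd1 read 18590.4 and 17571.1 in activated cells, against 7856.7 and 5849.3 in regulatory and 5234.5 and 4514.7 in memory cells. Its log2 difference was 1.89 against memory cells (limma adjusted p = 0.0027). Hspa9 and Hspd1 were called against memory cells in all 13 alternative fits, those that left out an array included.

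Hspe1, which shares its promoter region with Hspd1, did not follow it on its main probe set, at 9436.5 and 9252.4 in activated cells, against 8835.4 and 7260.0 in regulatory and 9561.4 and 10579.3 in memory cells. Its other probe set read 379.3 and 502.7 in Furin cKO and control activated cells, against 4653.9 and 3627.8 in regulatory and 4282.8 and 2793.7 in memory cells. Taking the mean of both probe sets turned its log2 difference against regulatory cells, 0.22 on the main probe set, to -1.51 (limma adjusted p = 0.0077). Among the 7 other mitochondrial genes, 4 were called higher in activated than in memory cells and 1 lower, the protease gene Clpp standing highest at a log2 difference of 2.30 (limma adjusted p = 0.002).

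In the HSP90 group, 5 of 8 members were called higher in activated than in memory cells (Ahsa1, Cacybp, Chordc1, Fkbp4 and Stip1) and 2 were called lower (Cdc37 and Fkbp5). Fkbp4 read 3083.0 and 3452.8 on the Furin cKO and control activated arrays, against 591.1 and 882.3 on the memory arrays, a log2 difference of 2.18 ± 0.33 (limma adjusted p = 0.009). Cacybp read 10760.6 and 10444.7 in activated cells, against 3924.1 and 3115.4 in memory cells (1.60 ± 0.19, limma adjusted p = 0.0052). Against regulatory cells 2 were called higher, Cacybp and Fkbp4, and 1 lower, Fkbp5. With 1 activated or memory array left out, 0 or 1 of the group were called higher against memory cells.

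Fkbp5 read 888.3 and 775.5 on the Furin cKO and control activated arrays, against 1579.9 and 1541.3 in regulatory and 1861.7 and 1442.9 in memory cells. The difference was -0.98 ± 0.15 against memory cells (limma adjusted p = 0.01) and -0.91 ± 0.15 against regulatory cells (limma adjusted p = 0.013). Hsp90aa1 itself did not pass the threshold, with log2 differences of 0.54 ± 0.19 against memory cells (limma adjusted p = 0.089) and 0.48 ± 0.19 against regulatory cells (limma adjusted p = 0.11). Of the 9 other HSP90 co-chaperone genes tested, 5 were called higher in activated than in memory cells and 2 lower. Ppp5c, a phosphatase bound to HSP90, stood at 1.33 (limma adjusted p = 0.005).

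The HSP70 family divided in activated cells. Hsph1 read 8466.5 and 8337.3 on the activated arrays, against 1610.4 and 1914.0 on the memory arrays, a log2 difference of 2.26 ± 0.48 (limma adjusted p = 0.022). Hspa4l was higher by 1.63 ± 0.16 (limma adjusted p = 0.0035) and Hspa4 by 1.25 ± 0.13 (limma adjusted p = 0.0041) against memory cells. The other probe sets of Hspa4 went different ways. Among them were 123.7 and 154.5 in activated against 381.9 and 369.4 in memory cells, and 889.9 and 695.6 against 370.3 and 392.8. With the mean of probe sets Hspa4 was not called. Dnajb1 was higher by 1.41 ± 0.21 (limma adjusted p = 0.0091), and was the 1 J-domain member called in that contrast. Its other probe set went the opposite way, at 881.3 and 786.5 in activated against 1918.3 and 1664.2 in memory cells. With the mean of probe sets Dnajb1 was not called. Of 13 other J-domain genes tested, 4 were called higher and 3 lower, and of 14 other HSP70, small HSP and exchange factor genes 4 were called higher and 2 lower.

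Hspa1b went the other way, with 1153.9 and 509.9 on the Furin cKO and control activated arrays, against 11686.2 and 4992.6 on the memory arrays. Its log2 difference was -3.32 ± 0.21 (limma adjusted p = 0.002), and it was called in all 13 alternative fits. Hspa1a, at -1.51 ± 0.57, did not pass (limma adjusted p = 0.1). Hspa8 was not called in either contrast, at -0.31 ± 0.22 in both. Quantile normalization turned it to 1.02 against memory cells (limma adjusted p = 0.03).

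Bag3 and Hspb1 were lower in activated cells. Bag3 read 61.4 and 98.4 there on the Furin cKO and control array, against 333.4 and 255.8 in regulatory and 500.6 and 310.4 in memory cells. This was a log2 difference of -2.34 ± 0.37 against memory cells (limma adjusted p = 0.011). Against regulatory cells it was -1.91 ± 0.37 (limma adjusted p = 0.018), and most alternative fits did not call it. Hspb1 read 121.6 and 65.1 in activated cells, against 618.7 and 273.8 in regulatory cells, a log2 difference of -2.21 ± 0.37 (limma adjusted p = 0.012). Against memory cells (245.7 and 277.7) its log2 difference was -1.55 ± 0.37 (limma adjusted p = 0.032). Over the alternative fits that difference ran between -2.16 and -0.61, and most did not call it. Bag2, another exchange factor, went the opposite way, at 490.5 and 455.3 in activated and 146.0 and 100.1 in memory cells (1.97, limma adjusted p = 0.0038).

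Cirbp read 72.9 and 88.1 on the Furin cKO and control activated arrays, against 719.7 and 2709.3 on the regulatory and 2188.5 and 2892.6 on the memory arrays. Its log2 difference was -4.97 ± 0.46 against memory cells (limma adjusted p = 0.0032) and -4.12 ± 0.46 against regulatory cells (limma adjusted p = 0.0048), the largest of any member in both contrasts. Every uncultured array lay well above both activated arrays. Over the fits with other settings or 1 array fewer, its log2 difference against memory cells ran between -5.41 and -4.12, and it was called in 11 of 13.

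Cell cycle genes also differed between these populations, with 12 of 15 called higher in activated than in memory cells and 14 of 15 against regulatory cells, at median log2 differences of 1.95 and 2.5. Their part in the chaperone differences was not tested.

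Between the uncultured populations, 0 members passed the adjusted threshold of limma in regulatory over memory cells, and 0 of 15808 genes did. At an unadjusted p under 0.05, 4 members were higher and 3 lower, where 9.73% and 11.5% of genes were. Hspa1b had the lowest adjusted p of the members, with 1430.6 and 927.3 on the Furin cKO and control regulatory arrays, against 11686.2 and 4992.6 on the memory arrays (log2 difference -2.73 ± 0.21, limma adjusted p = 0.051). Hspa1a stood at -2.81 ± 0.57 (limma adjusted p = 0.11).

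Hspa4l read 1227.7 and 918.9 on the Furin cKO and control regulatory arrays, against 402.5 and 358.1 on the memory arrays, a log2 difference of 1.48 ± 0.16 (limma adjusted p = 0.065). With a floor at the 60th percentile or a floor of each array, both Hspa4l and Hspa1b passed. Hsph1, Chordc1, Stip1 and Fkbp4 stood at 0.66 to 0.77 with adjusted p-values of 0.28 to 0.44. For these genes the Furin cKO regulatory array was well above the memory arrays, whereas the control regulatory array was nearer to them.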

How the data were processed

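Each of 6 mouse CD4 T cell samples was hybridised to 1 Affymetrix array of the 3′ type. The deposited values are intensities on a linear scale, made by the authors with MAS5, per the submitters' processing notes with settings and a build that are not given in the sources used. The 2% trimmed mean of each array was 500, so the arrays had been scaled before deposit. Of 45101 probe sets, 34945 carry 1 gene symbol in the platform annotation, 932 several and 9160 none; only the first kind was named, and 64 control probe sets were left out. Of several probe sets for 1 of the 18193 genes, the brightest by mean log2 signal was used.

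Signals below a floor of 47.6, the pooled 40th percentile, were raised to it before log2, and a genotype comparison omitted genes under it on both arrays. Genotypes were compared within a population as the log2 fold of Furin cKO over control, with no test, and a member was counted at 1.5-fold. Populations were compared with limma 3.58.1 in R 4.3.3 (population and genotype as additive factors, empirical Bayes moderation, Benjamini-Hochberg adjustment over 15808 genes, threshold 0.05). The fit was tested on simulated data. With 2 residual degrees of freedom, the p-values measure only the spread between these arrays, which may be technical.

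Alternatives were quantile normalization, cyclic loess, other floors (20th and 60th percentile, each array's own, none), the mean of all probe sets, leaving out each array and exchanging the memory labels. The members, gene lists, thresholds and alternatives were chosen with earlier results of these data known. All members may be named; full values are given for those past 1.5-fold and for the largest population differences, and up to 3 genes are named per other list. Promoters are from RefSeq, GRCm38.p6, matched by symbol. The Entrez identifiers are those of the platform annotation.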

Additional observations from a re-analysis of the deposited data

Results flagged for a closer look

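Bag3 stood out because its genotype difference passed 1.5-fold in opposite directions in a pair of populations. Its log2 fold of the Furin cKO over the control array was -0.68 in activated cells, where both signals were near the floor, and 0.69 in memory cells, where the direction rests on the label of the Furin cKO array. The difference between these folds was not tested, since each rests on 1 array per group.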

How the results depend on the processing

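In regulatory cells the count of 12 members at least 1.5-fold higher ranged between 10 and 12, and the median of 0.35 between 0.32 and 0.38, over the 7 alternatives. With quantile normalization the activated median was -0.01 and the memory median 0.02, and with cyclic loess the memory median was 0.01. The count at least 1.5-fold lower in activated cells was 0 with a floor at the 60th percentile and 2 with the mean of probe sets. For regulatory over memory cells, a floor at the 60th percentile or of each array gave 1 member higher and 1 lower. Activated over memory cells, 11 members were higher with no floor, and leaving out 1 array gave 3 to 13 higher and 1 to 3 lower. Activated over regulatory cells, 8 were higher with no floor and 9 with the mean of probe sets, 3 were lower with cyclic loess and 3 with no floor, and leaving out 1 array gave 0 to 9 higher and 0 to 3 lower. Fewer arrays lower the residual degrees of freedom; the cause of the other shifts was not tested. Among differences that passed in either fit, a direction turned for Hspa8 with quantile normalization (1.02, activated over memory cells) and, with the mean of probe sets, for Hspe1 (-1.51) and Dnajb6 (-0.42, activated over regulatory cells). Members that did not pass also took the other sign in some alternative: 7 of 13 in activated over memory cells, 9 of 17 in activated over regulatory cells and 14 of 36 in regulatory over memory cells, so that their directions are not settled. Over all genes, 7013 were called in activated over memory cells, 11164 with a floor of each array and 1952 to 4196 with 1 array left out. In activated over regulatory cells 7063 were called, 11251 with that floor and 0 to 5975 with 1 array left out. In regulatory over memory cells 0 were called, 453 with a floor at the 60th percentile and 218 with that of each array. Exchanging the memory labels left the genotype term with 0 members. Bag3, Hspb1, Hsf2 and Cirbp in activated cells lie near the floor, which limits their folds. The labels give no replicate numbers, so no block by number was fitted; the genotype term of the model already compares the genotypes within populations.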
